A study of Mus musculus with 16 samples.

Results

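The small heat shock proteins are described here in differentiating mouse muscle cells that lack the microRNAs of the miR-206 family. The genes were the 7 rows of the deposited table named Hspb1, Hspb2, Hspb3, Hspb6, Hspb7, Hspb8 and Cryab, out of 35275 genes, and 6 of the 7 passed the filter of a mean of at least 0.5 FPKM over all libraries (11832 genes passed). FPKM counts the fragments of a gene relative to its length in kilobases and to the library total. Poly(A) RNA was sequenced from C2C12, a mouse myoblast cell line whose cells fuse to form myotubes when serum is reduced, in a stock that the labels describe as PAX7 negative. A pair of control populations with the wild-type genotype (control) was set against a pair of triple-knockout (tKO) clones, which lack the genes of miR-206 and of both copies of miR-1a, miR-1a-1 and miR-1a-2. Each of these 4 lines was sampled in growth medium (GM), with 20% FBS and at about 80% confluency, and after 3 days in 2% HS (DM3). There were 2 cultures of every line at each stage, numbered 1 and 2 in the labels, which makes 4 groups of 4 libraries. A tKO line is 1 clone, so what is particular to a clone and what the knockout does cannot be told apart within it, and how the knockout was made is not given in the sources used here.

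Small heat shock proteins are chaperones built around an alpha-crystallin domain. They need no ATP, form oligomers of changing size, and hold unfolding proteins so that the ATP-driven chaperones can refold them or pass them on for degradation. Striated muscle is the tissue in which most of the family is found, and there its members bind desmin, actin, titin and other parts of the contractile apparatus. miR-206 and miR-1 are microRNAs of muscle that share their seed and accumulate as myoblasts differentiate.

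Depth was 22642563 to 56585952 fragments per library. The summed level of the 7 myotube markers found in the table was 9.13 to 14.6 FPKM for control and 13 to 74.9 for tKO libraries in GM. In DM3 it was 708 to 1144 for control and 414 to 1114 for tKO libraries, and among the latter it was 1098 and 1114 in culture 1 and 414 and 432 in culture 2. Pax7 was at most 0.0237 FPKM in any library. The summed adipocyte, osteoblast and endothelial markers (4 genes each) did not exceed 0.483 FPKM in any library, and leukocyte markers did not exceed 4.04. Lep, the adipocyte hormone, was at 0 in every library. The summed fibroblast markers were 28.7 to 37.5 FPKM for control and 6.84 to 16.9 for tKO libraries in DM3. Dcn carried that sum, at 25.2 to 34.4 and 5.36 to 14.3 FPKM. Pdgfra was also lower, at 2.62 to 4.58 in control and 0.891 to 2.48 in tKO libraries. Thy1 stayed at or under 0.0850 FPKM in DM3. Lum was not lower in tKO libraries, at 0 to 0.0767 in control and 0.0751 to 0.330 in tKO DM3. The smooth muscle list was carried by Acta2, an actin that myoblasts also make. It summed to 1792 to 2973 FPKM in control and 1952 to 5456 in tKO libraries in GM, and to 763 to 1233 and 940 to 1520 in DM3, while its defining member Myh11 stayed at or under 0.206 FPKM.

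The microRNA and the letters it could pair with are shown because the knockout removed it. The mature 3′ arm of miR-206 (RefSeq, GRCm38.p6, chr1:20679055-20679076, plus strand) has its seed, bases 2 to 8, in capitals. The 3′ arms of miR-1a-1 and miR-1a-2 are named only. Sites were searched in the longest annotated 3′ UTR of each gene (GENCODE release M21, build GRCm38). A site was the 6 letters CATTCC, opposite bases 2 to 7 of the microRNA, extended on either side to the 7 letters ACATTCC or CATTCCA or to the 8 letters ACATTCCA. Hspb1 and Hspb7 held all 3 sites found among the 7 genes. The site is in capitals, and the numbers count from the first base of the UTR.
miR-206-3p: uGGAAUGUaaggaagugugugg
Hspb1 UTR, site at 236: agcggagatcacCATTCCggttactttcga
Hspb7 UTR, site at 771: gccttaaatactCATTCCcactggttggag
Hspb7 UTR, site at 950: acacttccccccCATTCCAcctctcctgag
The site at 950 of Hspb7 was the only one of 7 letters. No member had ACATTCC or the 8 letters, and Hspb2, Hspb3, Hspb6, Hspb8 and Cryab had none of these letters in UTRs of 132 to 840 bases. Among 10351 tested genes with a 3′ UTR, 33.2% held at least the 6 letters, 19.1% at least 7 and 4.52% all 8.

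Promoter windows of 300 bases, from 250 before to 50 after the annotated start (RefSeq, GRCm38.p6), were matched for 5 of the 7 genes, with 6 windows in all. They are shown because members with heat shock element letters included 1 that rose, 1 that fell and 1 that did not pass in differentiation. The heat shock element was searched as GAANNTTC and as TTCNNGAA, and the TATA box as TATAAA, on both strands. GAANNTTC was in 7.86% of all 32851 windows, TTCNNGAA in 8.52% and TATAAA in 13.6%. In the windows below capitals mark GAANNTTC and TATAAA.
Hspb1, chr5:135887669-135887968, plus strand: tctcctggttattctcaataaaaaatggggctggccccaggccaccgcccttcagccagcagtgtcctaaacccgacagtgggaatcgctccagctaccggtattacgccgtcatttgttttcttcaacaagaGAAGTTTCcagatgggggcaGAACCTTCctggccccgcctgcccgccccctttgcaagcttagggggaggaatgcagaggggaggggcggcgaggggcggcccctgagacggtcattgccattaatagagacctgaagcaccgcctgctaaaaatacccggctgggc
Hspb8, chr5:116422815-116423114, minus strand: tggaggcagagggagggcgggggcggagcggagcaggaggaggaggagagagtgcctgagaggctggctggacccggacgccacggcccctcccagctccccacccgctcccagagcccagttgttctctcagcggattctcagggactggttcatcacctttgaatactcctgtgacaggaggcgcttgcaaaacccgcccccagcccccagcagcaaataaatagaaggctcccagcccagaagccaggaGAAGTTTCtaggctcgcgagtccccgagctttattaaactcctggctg
Hspb6, chr7:30553051-30553350, plus strand: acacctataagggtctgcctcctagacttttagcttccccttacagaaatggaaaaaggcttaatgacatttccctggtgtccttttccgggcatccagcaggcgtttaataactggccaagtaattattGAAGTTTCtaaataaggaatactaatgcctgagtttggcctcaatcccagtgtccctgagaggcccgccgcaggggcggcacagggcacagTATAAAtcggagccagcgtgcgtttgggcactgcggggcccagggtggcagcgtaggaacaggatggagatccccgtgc
Hspb7, chr4:141420529-141420828, plus strand: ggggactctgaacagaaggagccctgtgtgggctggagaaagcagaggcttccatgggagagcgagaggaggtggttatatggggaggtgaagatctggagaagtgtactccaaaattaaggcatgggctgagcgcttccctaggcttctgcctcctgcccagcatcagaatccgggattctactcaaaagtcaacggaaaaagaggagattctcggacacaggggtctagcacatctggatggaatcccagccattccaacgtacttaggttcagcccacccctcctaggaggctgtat
Hspb1 held GAANNTTC at 2 places, starting 117 and 97 bases before the start of transcription. Hspb8 held it 2 bases after the start, Hspb3 224 bases before it, and the second of the 2 windows of Hspb6 held it 120 bases before it, with TATAAA 29 bases before it. The window of Hspb7 and the first window of Hspb6 held neither, and TTCNNGAA was in none of the 6. The MEF2 box, bound by myocyte enhancer factors, was found in Hspb3 alone, overlapping its TATAAA (3.19% of all windows), and the CArG box of serum response factor in none (1.63%). The myogenic E box CAGCTG was in none of the 6 windows (16.3% of all). The looser CANNTG was in 4 of the 6, those of Hspb1, Hspb3, Hspb7 and Hspb8, and in neither window of Hspb6 (72.3% of all). A match is a run of letters and not a bound site.

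The family was led by Cryab and Hspb1 in all 4 groups. Over all libraries the mean FPKM of Cryab ranked 439th of 35275 genes and that of Hspb1 523rd, Hspb2 ranked 1454th, and Hspb3 ranked 14184th. In control GM the order of mean FPKM was Cryab, Hspb1, Hspb8, Hspb6, Hspb2, Hspb7 and Hspb3, and the ranges of neighbours from Cryab to Hspb7 did not overlap. In tKO GM the ranges of Cryab and Hspb1 overlapped, as did those of Hspb6, Hspb8 and Hspb2. In control DM3 Hspb2 had moved up to just under Cryab and Hspb1, whose ranges overlapped. The order in tKO DM3 was the same, and there the ranges of Hspb8 and Hspb6 overlapped as well. Summed over the 7 genes the level was 199 to 356 FPKM in the GM libraries and 380 to 513 in the DM3 libraries.

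**Figure D1:**
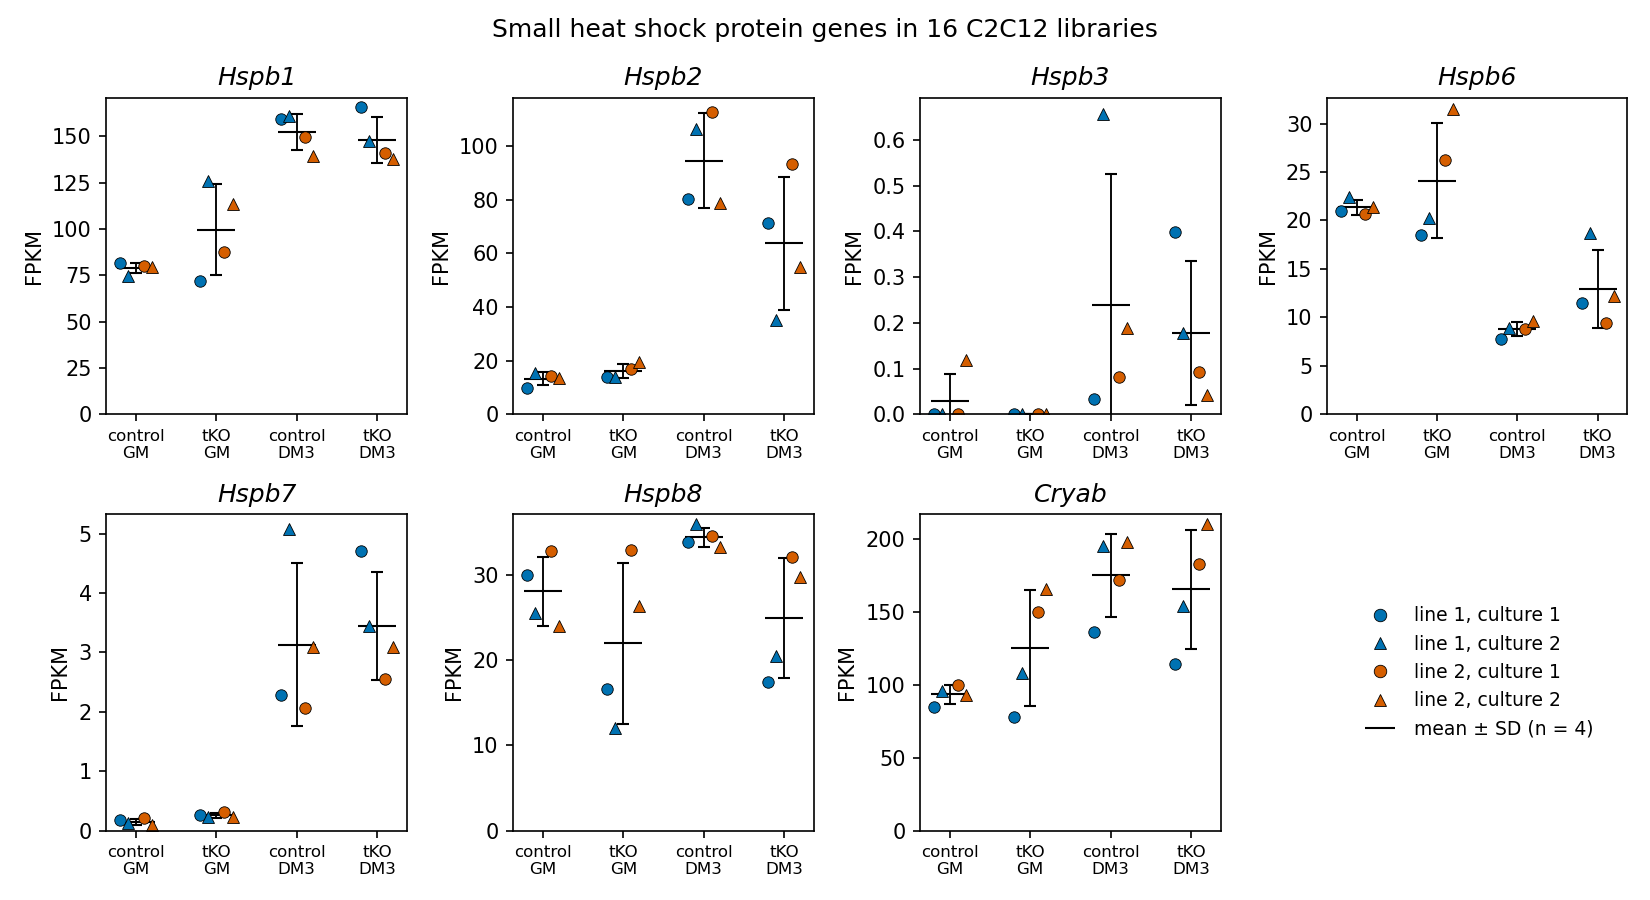
FPKM (vertical axis, a separate linear scale from 0 in each panel) of the 7 genes in the 16 libraries, by group. Points are libraries, coloured by line and shaped by culture, and bars are the mean ± SD of 4 libraries. Hspb1, Hspb2 and Hspb7 are higher in every DM3 library than in any GM library, and Hspb8 is low in the 4 libraries of tKO clone 1.

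Among the contrasts of groups, only those of differentiation had members that passed the threshold, and these went in both directions. In control cells Hspb1, Hspb2, Hspb7 and Cryab rose and Hspb6 fell, so 5 of the 6 tested members passed (limma on log2(FPKM + 1), adjusted p under 0.05). Over all tested genes 61.5% passed, 23.2% with higher and 38.3% with lower values in DM3. In tKO cells Hspb1, Hspb2 and Hspb7 rose and Hspb6 fell, 4 of 6, against 60.9% of all genes, of which 24.9% of the tested genes were higher and 36% lower. With most genes moving, the share of members that passed is near that of all genes. Changes and their standard errors (SE) are given below as log2(FPKM + 1), where the added 1 shrinks the changes of low genes.

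Hspb2 (ENSMUSG00000038086, chr9:50751072-50752354, minus strand), also called MKBP, binds and activates the myotonic dystrophy kinase DMPK and is made mainly in muscle. Values of 4 libraries are listed as line 1 in cultures 1 and 2 and then line 2 in cultures 1 and 2. Hspb2 stood at 9.91, 15.3, 14.3 and 13.5 FPKM in control GM and at 80.2, 106.6, 112.9 and 79.0 in control DM3. The groups lay far apart, and the rise was 2.75 (SE 0.231, adjusted p = 6.93e-08), a 7.15-fold ratio of means. In tKO cells the values were 13.8, 14.1, 16.8 and 19.6 FPKM in GM and 71.3, 35.2, 93.4 and 55 in DM3. These groups did not overlap either, and the rise was 1.85 (SE 0.231, adjusted p = 4.13e-06), or 3.97-fold. In control DM3 64.4% of all tested genes did not overlap with GM, and in tKO cells 49.1%.

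Cryab (ENSMUSG00000032060, chr9:50752758-50756633, plus strand) encodes alpha-B crystallin, the desmin and titin chaperone whose human mutations cause desmin-related myopathy. It lies head to head with Hspb2, with 403 bases between the 2 genes as the table lists them. In GENCODE release M21 the annotated Cryab gene starts further out, at 50751325, and overlaps Hspb2 on the opposite strand. Since the deposited table does not state whether counting used the strand, fragments from that overlap cannot be assigned with certainty.

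Control GM libraries had 84.6, 95.8, 99.6 and 93.1 FPKM of Cryab, and control DM3 libraries 136.1, 194.5, 171.5 and 197.5. All DM3 values were above all GM values, and the rise was 0.89 (SE 0.215, adjusted p = 0.00196), 1.88-fold. In tKO cells the values were 77.7, 107.6, 149.4 and 165.5 FPKM in GM and 114.4, 154.0, 182.4 and 210.0 in DM3. Here the stages overlapped and the change of 0.42 (95% interval -0.03 to 0.88) did not pass (adjusted p = 0.0995). It passed with median-of-ratios scaling, at 0.59 (adjusted p = 0.0214). Within each clone and culture number the DM3 value was the higher one.

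The neighbours thus changed unequally. Cryab was 6.25 to 8.54 times Hspb2 per kilobase in control GM and 5.64 to 8.89 times in tKO GM. In DM3 the ratio had fallen to 1.52 to 2.5 in controls and 1.6 to 4.37 in tKO cells.

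Hspb1 (ENSMUSG00000004951, chr5:135887919-135889563, plus strand) encodes the actin-regulating heat shock protein known in mouse as Hsp25. Its values were 81.4, 74.6, 80.1 and 79.7 FPKM in control GM and 159.3, 160.9, 149.8 and 139.4 in control DM3. Both groups were tight, and the rise of 0.94 (SE 0.139, adjusted p = 2.36e-05) was a 1.93-fold ratio of means. In tKO cells Hspb1 went from 71.7, 125.8, 87.6 and 113.3 FPKM to 166.0, 147.6, 141.1 and 137.9, without overlap. This rise was 0.60 (SE 0.139, adjusted p = 0.00139). It did not pass with culture 2 alone (0.26, adjusted p = 0.131), where the GM libraries of both clones were the higher ones.

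Hspb7 (ENSMUSG00000006221, chr4:141420779-141425311, plus strand), the cardiovascular member that binds filamin C, went from near background to clear expression. Control GM libraries had 0.176, 0.131, 0.203 and 0.0887 FPKM, which are 8 to 19 fragments, and control DM3 libraries 2.28, 5.08, 2.06 and 3.09. The rise was 1.79 (SE 0.184, adjusted p = 5.41e-07), and the ratio of means was 20.9. tKO libraries went from 0.256, 0.223, 0.311 and 0.234 FPKM to 4.70, 3.44, 2.55 and 3.10, a rise of 1.80 (SE 0.184, adjusted p = 4.72e-07) and a 13.5-fold ratio of means. With a pseudocount of 0.1 these rises were 3.63 and 3.29, and both passed.

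Hspb6 (ENSMUSG00000036854, chr7:30552178-30555443, plus strand) encodes Hsp20, which is phosphorylated by cyclic nucleotide-dependent kinases and acts in smooth and cardiac muscle. It was the member that fell. Control libraries had 20.9, 22.4, 20.7 and 21.4 FPKM in GM and 7.80, 8.86, 8.81 and 9.61 in DM3, a change of -1.20 (SE 0.175, adjusted p = 2.14e-05). In tKO cells GM libraries had 18.5, 20.3, 26.2 and 31.5 FPKM and DM3 libraries 11.5, 18.7, 9.42 and 12.2. Clone 1 in culture 2 stayed high in DM3 and made the groups overlap, and the change was -0.86 (SE 0.175, adjusted p = 0.000479). Without clone 2 it was -0.37 and did not pass (adjusted p = 0.105). The summed smooth muscle markers, carried by Acta2, were also lower in DM3 than in GM in both genotypes. Cnn1 among them was at 1.68 to 3.66 FPKM in control GM and 0.0929 to 0.664 in control DM3. In the tKO libraries Cnn1 was at 2.14 to 15.9 and 0.158 to 1.70 FPKM. Smtn of the same list did not fall with them, at 18.3 to 24.0 FPKM in control GM and 23.9 to 31.9 in control DM3. In the tKO libraries Smtn was at 14.5 to 19.2 and 17.8 to 31.4 FPKM. The summed undifferentiated myoblast markers likewise went from 169 to 234 FPKM in GM down to 48.6 to 96.4 in DM3 for controls, and from 125 to 238 down to 39.4 to 83.0 for tKO libraries. Ccnd1 and Id1 carried that fall. Myf5 of the same list overlapped between the stages, at 13.2 to 20.6 FPKM in control GM and 13.2 to 26.4 in control DM3. In the tKO libraries Myf5 was at 11.5 to 13.9 and 8.94 to 27.2 FPKM. The part of these markers in the fall of Hspb6 was not tested. The ends of Hspb6 overlap Proser3 and Lin37 on the opposite strand and a microRNA gene, Gm38670, on its own strand, so part of its count is uncertain.

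Hspb8 (ENSMUSG00000041548, chr5:116408491-116422864, minus strand) is the partner of BAG3, with which it hands damaged filamin to autophagy. Control libraries had 29.9, 25.5, 32.8 and 24.0 FPKM in GM and 33.8, 35.9, 34.5 and 33.2 in DM3. The DM3 values were all higher, by a small margin, and the change of 0.29 (95% interval -0.22 to 0.81) did not pass (adjusted p = 0.308). It passed in a fit of only the 8 control libraries (adjusted p = 0.0223) and in a fit without tKO clone 1 (adjusted p = 0.0256). In tKO cells the change was 0.23 (95% interval -0.28 to 0.75, adjusted p = 0.432).

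Hspb3 (ENSMUSG00000051456, chr13:113662896-113663676, minus strand), the subunit that forms a complex with Hspb2 in muscle, was barely detected and failed the filter. No fragment was counted in 3 of the 4 control GM libraries or in any tKO GM library, which allows up to 0.170 FPKM, the value of 3 fragments. The remaining control GM library had 3 fragments (0.118 FPKM). Control DM3 libraries had 1, 29, 2 and 5 fragments and tKO DM3 libraries 10, 4, 2 and 1, so most were within a few fragments of 0. The difference between stages was 0.24 in control cells (two-sided exact permutation p = 0.171) and 0.23 in tKO cells (exact permutation p = 0.0286, the smallest that 70 arrangements allow, rising to 0.0857 without any 1 tKO GM library).

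With the deposited FPKM the median tested gene changed by -0.15 (control) and -0.12 (tKO), and with median-of-ratios scaling by 0.012 and 0.014. Calls over all genes shifted with it, with the share of higher genes among the calls going from 37.7% to 50.2% (control) and from 40.9% to 50.7% (tKO). Members that rose therefore rose further against the median gene, for example Hspb1 by 1.14 and Cryab by 1.09 in control cells with that scaling, and Hspb6 fell by less (-1.0 in control and -0.70 in tKO cells). The directions of the 6 members held under each scaling tried for both differentiation contrasts. In bulk RNA, fewer cells of a type and less RNA per cell cannot be told apart. The myotube markers rose in the same libraries as Hspb1, Hspb2, Hspb7 and Cryab, and their part in these rises was not tested.

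**Figure D2:**
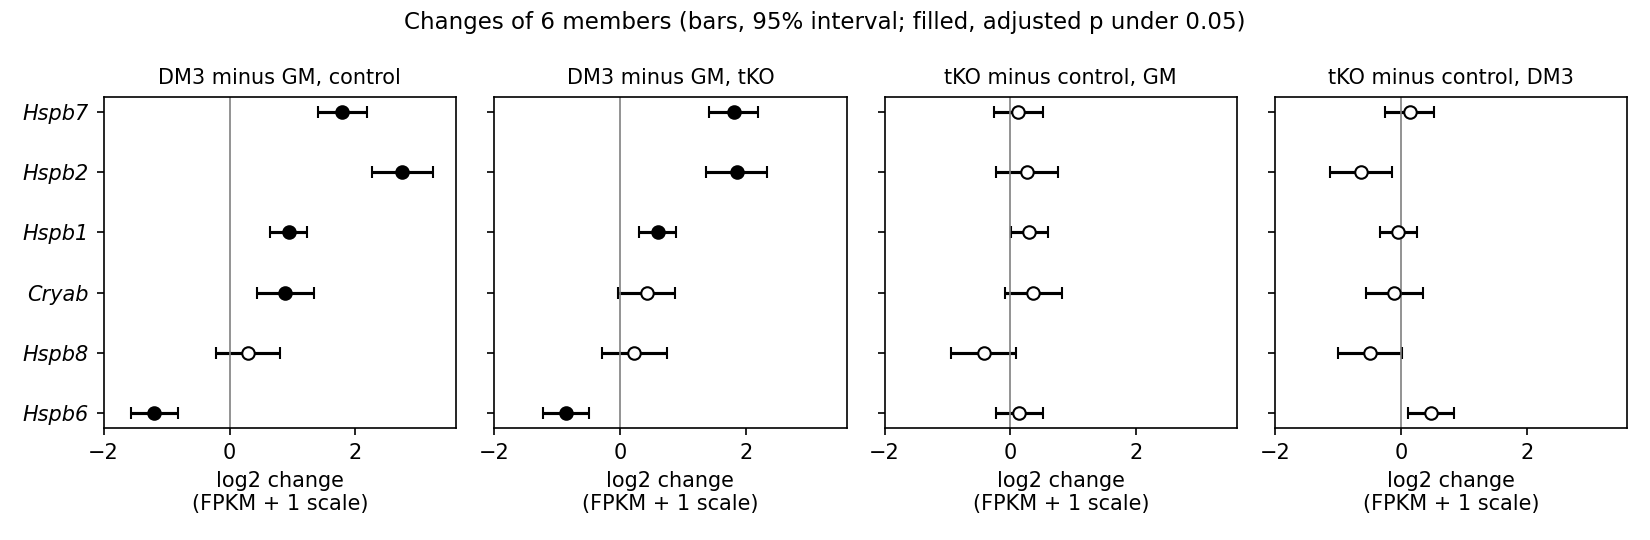
Change of the 6 tested members on the log2(FPKM + 1) scale (horizontal axis) in 4 contrasts, with 95% intervals from limma; filled points have an adjusted p under 0.05. The intervals of Hspb7, Hspb2, Hspb1 and Hspb6 lie clear of 0 in both differentiation contrasts, and no genotype contrast has a filled point.

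The contrast of genotypes asked whether the level of the chaperones depends on the miR-206 family. No member passed in GM, where 2.06% of all tested genes did, and none in DM3, where 3.38% did (limma). At an unadjusted p under 0.05 there was 1 member in GM (Hspb1) and there were 2 in DM3 (Hspb2 and Hspb6), and voom on fragment numbers also called 0 in both stages. Of all tested genes 17.5% in GM and 16.8% in DM3 had an unadjusted p under 0.05.

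For Hspb1 the mean was 99.6 ± 24.5 FPKM in tKO GM and 78.9 ± 2.95 in control GM (SD, n = 4), a difference of 0.30 (95% interval 0.01 to 0.59, adjusted p = 0.274). It came from culture 2, with 125.8 and 113.3 FPKM in the clones against 74.6 and 79.7, while in culture 1 the ranges overlapped. The share of all tested genes that separated within a culture number was not counted. The tKO GM library with the highest Hspb1, clone 1 in culture 2, also had the highest myotube marker sum in GM, 74.9 FPKM. Acta1 alone made up 72.1 FPKM of that sum, and Myog, Ckm, Myh3 and Tnnt3 were each at or under 0.205 FPKM there. The part of these markers in the Hspb1 level was not tested. In DM3 the means of Hspb1 were 148 ± 12.5 and 152 ± 9.92 FPKM, and the interval of the difference was -0.34 to 0.25.

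Hspb2 was 63.7 ± 24.7 FPKM in tKO DM3 and 94.7 ± 17.6 in control DM3 (SD, n = 4), a difference of -0.63 (95% interval -1.12 to -0.14, adjusted p = 0.169). Within culture 2 both clones, at 35.2 and 55 FPKM, were below both control populations, at 106.6 and 79.0, a log2 ratio of means of -1.02. Within culture 1 the ranges overlapped, at 71.3 and 93.4 FPKM for the clones and 80.2 and 112.9 for the controls. The share of all tested genes that separated within a culture number was not counted. The summed myotube markers were low in the same culture 2 clone libraries, at 414 and 432 FPKM, but the list was split. Acta1 (115 and 157 FPKM, 315 to 653 in control DM3), Tnnt3 and Ckm were below every control DM3 library in both. Actn3 was so only in clone 2 and Tmem8c only in clone 1. Myh3 (15.8 and 18.6 FPKM, 7.14 to 16.1 in controls) and Myog (19.3 and 3.89, 2.35 to 8.65 in controls) were not. The part of these markers in the Hspb2 values was not tested. Without clone 2 in culture 1 the difference was -0.84 and passed (adjusted p = 0.0343). The interaction, which asks whether the differentiation change differed between genotypes, was -0.89 for Hspb2 (95% interval -1.59 to -0.20, adjusted p = 0.323). No member passed the interaction (limma, 0.254% of all genes did), with 1 at an unadjusted p under 0.05 and 0 by voom.

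Hspb6 was 13 ± 4.03 FPKM in tKO DM3 and 8.77 ± 0.743 in control DM3 (SD, n = 4), a difference of 0.48 (95% interval 0.11 to 0.85, adjusted p = 0.169). Both clones were above both control populations within culture 1 and within culture 2. How many of all tested genes separated within a culture number was not counted, so this is description only. Over all 8 libraries the groups overlapped, since clone 2 in culture 1 (9.42 FPKM) lay below the highest control (9.61). For Hspb7, the member with the 7-letter site, tKO GM libraries did not overlap with control GM (0.223 to 0.311 against 0.0887 to 0.203 FPKM), which was also so for 14% of all tested genes. At these 8 to 27 fragments per library the difference of 0.13 did not pass (adjusted p = 0.771). Its size depended on how low values are scaled. The ratio of means was 1.71, and the log2 difference was 0.53 with a pseudocount of 0.1 (adjusted p = 0.355) and 0.81 with voom (adjusted p = 0.551). In DM3 the Hspb7 difference was 0.14 (95% interval -0.25 to 0.53, adjusted p = 0.753). For Cryab the intervals of the difference were -0.09 to 0.82 in GM and -0.56 to 0.35 in DM3, and for Hspb3 the exact permutation p was 1 in GM and 0.771 in DM3.

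Hspb8 was the member that separated the genotypes in DM3, with 17.4, 20.5, 32.0 and 29.7 FPKM in tKO libraries and 33.2 to 35.9 in controls, which did not overlap. Such separation was seen for 8.52% of all tested genes. The difference was -0.49 (95% interval -1.01 to 0.02, adjusted p = 0.324) and in GM it was -0.43 (adjusted p = 0.385). The spread inside the tKO group was the reason to look at the lines, a comparison added after these values were seen.

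By line, Hspb8 was lowest in tKO clone 1. Clone 1 had 16.6 and 12 FPKM in GM and 17.4 and 20.5 in DM3. Clone 2 had 32.9 and 26.4 FPKM in GM, where control libraries had 24.0 to 32.8. In DM3 clone 2 had 32.0 and 29.7 FPKM, under all control DM3 libraries (33.2 to 35.9). All these clone 2 values lay within 24.0 to 35.9 FPKM, the range of the 8 control libraries of both stages. In a fit with a mean for each line at each stage, clone 1 was lower than clone 2 by 0.84 (log2 change -0.84, SE 0.134, adjusted p = 0.00417) and lower than the controls (-0.88, SE 0.116, adjusted p = 0.000509). Clone 2 against the controls gave -0.04 (SE 0.116, adjusted p = 0.956). The p-values of this fit measure only the spread between cultures of the same line and stage, and not that between lines. Of all tested genes 5.41% differed between the clones, 16.3% between clone 1 and the controls and 2.14% between clone 2 and the controls. Between the control populations 0% did (limma), and 42 genes had an unadjusted p under 0.05. The fit pooled the spread of control and tKO cultures, and 42 is fewer than chance alone would give. The 0% is therefore not a measure of how alike the control populations were. The clone difference of Hspb8 passed without any 1 of the 8 tKO libraries, at -0.95 to -0.74.

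Cryab also differed between the clones, by -0.67 (SE 0.151, adjusted p = 0.0268), and was lower in clone 1 at each stage and culture number. Here it was clone 2 that lay further from the controls, at 0.46 (SE 0.130, adjusted p = 0.118), against -0.20 (adjusted p = 0.323) for clone 1. Neither passed, and the clone difference itself no longer passed in 6 of the 8 fits that left out 1 tKO library (adjusted p 0.0578 to 0.0943 in those). No other member passed between the clones, and none between the control populations or between clone 2 and the controls.

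**Figure D3:**
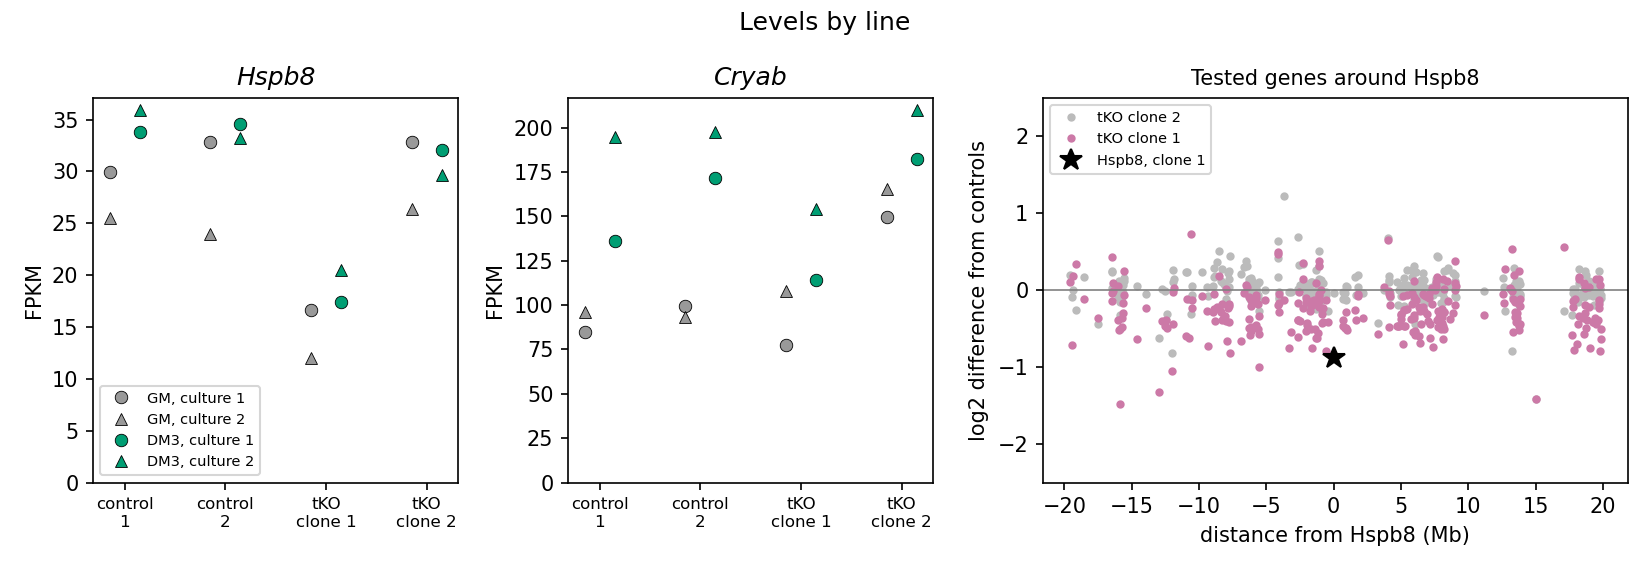
Left and middle, FPKM of Hspb8 and Cryab in each library by line, coloured by stage and shaped by culture. Right, log2 difference of each tKO clone from the controls for the 296 tested genes within the plotted distance of Hspb8 on its chromosome, against distance in Mb; the 4 clone 1 libraries of Hspb8 lie between 12 and 20.5 FPKM and its difference of -0.88 is at the lower edge of the clone 1 points near it.

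The genes around Hspb8 were lower in clone 1 as well. Of the 76 tested genes within 5 Mb of Hspb8, 67 (88.2%) were lower in clone 1 than in the controls, with a median of -0.25, against -0.011 over all tested genes. In clone 2 the median of the 76 was -0.00093. The other member on chromosome 5, Hspb1, lies among 107 tested genes within 5 Mb whose median in clone 1 was -0.31, while Hspb1 itself was at 0.15 (adjusted p = 0.472). None of the 76 neighbours was as low as Hspb8. Around Hspb2 and Cryab on chromosome 9 the clone 1 median was -0.03, and around Hspb7 on chromosome 4 it was 0.17. Around Hspb3 on chromosome 13 the 26 tested genes also had a low median, at -0.20 in clone 1 (73.1% lower) and -0.18 in clone 2. The window was chosen after the values were seen, and the part of this regional difference in the level of Hspb8 was not tested.

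The proteins that work with the family were taken from fixed lists. Of 7 partners of chaperone-assisted selective autophagy, in which HSPB8 and BAG3 act with HSPA8 and the ubiquitin ligase CHIP (Stub1), all were tested. In control cells 3 rose and 1 fell with differentiation (median 0.17), and in tKO cells 2 rose and 1 fell (median 0.14). Of all tested genes 61.5% and 60.9% passed in these contrasts. Bag3 itself stayed level, at 30.7 ± 1.36, 28.8 ± 3.23, 29.5 ± 0.836 and 27.6 ± 1.58 FPKM (SD, n = 4) for control and tKO in GM, then control and tKO in DM3, with changes of -0.06 and -0.05 (adjusted p = 0.603 and 0.622). Flnc, the filamin C that is the client of this route, rose in control cells by 0.58 (adjusted p = 0.00839), and its change in tKO cells was 0.20 (adjusted p = 0.343). Synpo2, the adaptor that links BAG3 to autophagosome membranes, rose by 1.26 in control cells (adjusted p = 0.00032) and by 0.64 in tKO cells (adjusted p = 0.0316).

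Dnajb6, the cochaperone mutated in a limb-girdle dystrophy, rose in both genotypes, by 0.36 and 0.34 (adjusted p = 0.00213 and 0.00308). Stub1 fell in control cells (-0.31, adjusted p = 0.0286), and Hspa8, the constitutive Hsp70, fell in tKO cells (-0.49, adjusted p = 0.00837). Neither fall passed with median-of-ratios or quantile scaling. In DM3 1 of the 7 partners differed between genotypes, where 3.38% of all tested genes did. Synpo2 was at 2.66 ± 1.14 FPKM in tKO cells and 6.25 ± 1.85 in control cells (SD, n = 4; -1.01, adjusted p = 0.0308), a difference that did not pass with TPM. None of the 7 passed between genotypes in GM (limma).

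The large heat shock proteins and their cochaperones moved in both directions. Of 19 listed genes 18 were tested, and 4 rose and 9 fell in each genotype, where falls also outnumbered rises over all tested genes (23.2% higher and 38.3% lower in controls, 24.9% and 36% in tKO cells), with medians of -0.34 in control and -0.42 in tKO cells, beside -0.15 and -0.12 for all tested genes. With median-of-ratios scaling 5 rose and 8 fell in control cells (median -0.13), and the counts in tKO cells were again 4 and 9 (median -0.25). The largest falls in control cells were of Hspa1b, the stress-inducible Hsp70, at -2.66 (adjusted p = 3.03e-06), and Hsp90aa1, the inducible Hsp90, at -1.84 (adjusted p = 2.46e-06). In tKO cells the largest were Hspa1b at -2.11 (adjusted p = 3.03e-05) and Hspd1, the mitochondrial Hsp60, at -1.82 (adjusted p = 1.29e-07). Hspa1b has a near-identical copy, Hspa1a, so the split of their fragments is uncertain. The largest rises were of Hspa5, the endoplasmic reticulum chaperone BiP, at 2.17 and 1.43 in control and tKO cells (adjusted p = 0.00028 and 0.00685). Dnajb5, a DNAJ cochaperone, followed at 0.69 and 0.87 (adjusted p = 0.000153 and 1.52e-05).

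In DM3 2 of the 18 were higher in tKO cells and 0 lower, against 3.38% of all tested genes that passed. Hsp90aa1 stood at 185.7 ± 59.3 FPKM in tKO and 92.9 ± 17.6 in control cells (SD, n = 4; 0.94, adjusted p = 0.0239), and Dnajb1, the Hsp40 partner of Hsp70, at 23.3 ± 0.595 and 16.4 ± 3.02 (0.50, adjusted p = 0.0213). Of 3 heat shock factors, the transcription factors that bind heat shock elements, Hsf1 and Hsf2 were tested. Hsf1 rose in control cells, going from 24.9 ± 2.13 FPKM in GM to 36.8 ± 4.56 in DM3 (SD, n = 4; 0.55, adjusted p = 0.000233). Its change in tKO cells was 0.15 (adjusted p = 0.206), and it passed there with median-of-ratios or quantile scaling. Hsf2 did not pass in either genotype (-0.06 and 0.04), and the interaction of Hsf1 did not pass (adjusted p = 0.324).

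Among 9 client and partner proteins of muscle, 6 were tested. In control cells 5 rose and 1 fell, and in tKO cells 4 rose and 1 fell, where 61.5% and 60.9% of all tested genes passed, 23.2% and 24.9% with higher values. Des, the intermediate filament that Cryab protects, rose by 3.07 (control) and 2.95 (tKO) (adjusted p = 1.27e-05 and 1.81e-05). Vim, the intermediate filament of undifferentiated cells, fell in both genotypes (-0.57 and -1.0, adjusted p = 0.00143 and 7.59e-06); the fall in control cells did not pass with median-of-ratios scaling. Dmpk, the kinase that Hspb2 binds, rose by 0.58 and 0.44 (adjusted p = 0.000642 and 0.0051). Smyd1, a muscle methyltransferase that assists myosin assembly, rose from at most 0.0394 FPKM in any GM library in DM3 to 4.09 ± 0.773 FPKM in controls and 7.46 ± 2.14 in tKO cells (SD, n = 4), changes of 2.32 and 3.02 (adjusted p = 9.07e-09 and 6.43e-10). The genotypes differed in DM3 by 0.71 (adjusted p = 0.0199).

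Of 4 further genes of the small heat shock family, 1 was tested. Hspb11, a divergent member of the intraflagellar transport machinery, rose in controls from 4.97 ± 0.876 to 13.2 ± 1.62 FPKM (SD, n = 4; 1.26, adjusted p = 2.41e-05). In tKO cells it rose from 7.69 ± 1.39 to 14.1 ± 4.91 FPKM (0.76, adjusted p = 0.00221). Hspb9, a testis member under the filter, had means of 0.551 and 0.460 FPKM in control and tKO GM and of 0.0503 and 0.0788 in DM3. Cryaa, the lens crystallin, and Odf1, of the sperm tail, did not exceed 0.0581 FPKM in any library.

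**Figure D4:**
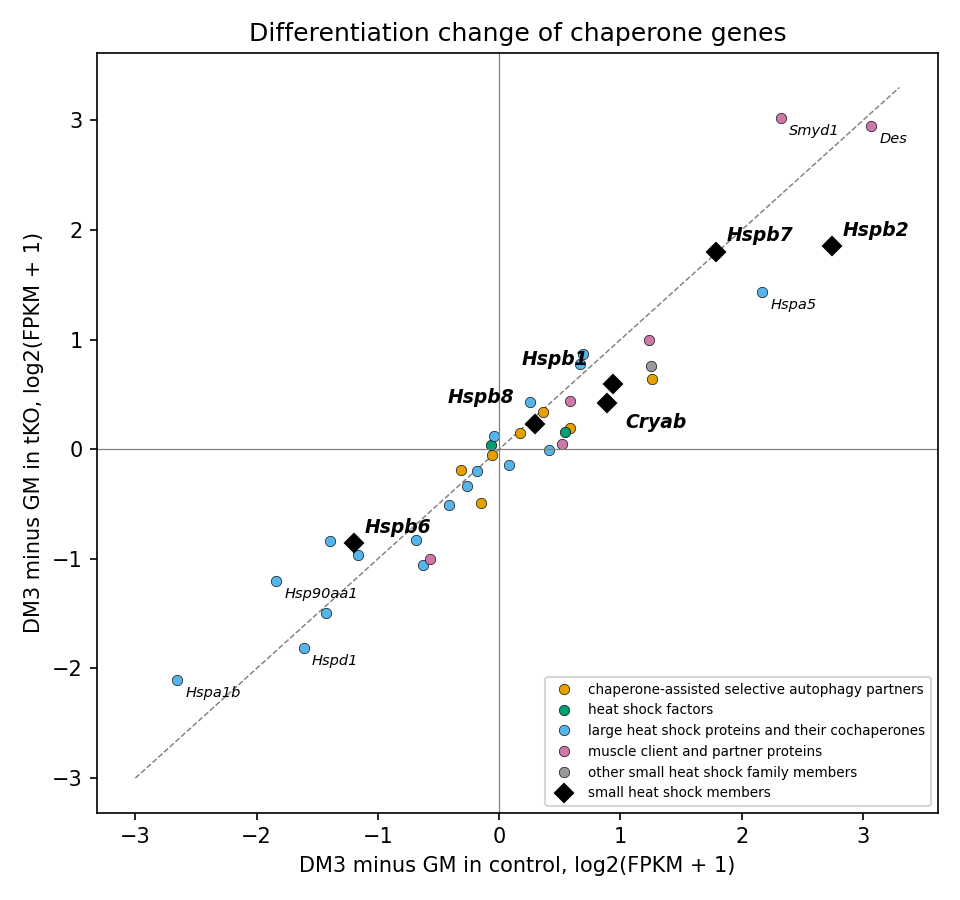
Change from GM to DM3 on the log2(FPKM + 1) scale in control cells (horizontal) and tKO cells (vertical) for the 6 tested members (black diamonds) and the tested genes of 5 lists (coloured points); the dashed line marks equal change. Hspb2, Hspb7, Hspb1 and Cryab lie in the upper right and Hspb6 in the lower left, near the large heat shock proteins that fell, with Hspb2 at 2.75 and 1.85 the diamond farthest from the line.

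Across the 16 libraries the members varied together mainly through stage, and these correlations are descriptions over libraries that share lines and cultures. Pearson's r of log2(FPKM + 1) was 0.90 between Hspb2 and Hspb7 and -0.91 between Hspb2 and Hspb6. After the group means were subtracted these became -0.04 and -0.36. The pair with the highest r after subtraction was Hspb8 and Cryab (0.70), the pair that differed between the clones. Hspb2 and Cryab, the head-to-head neighbours, had 0.76 over all libraries and 0.29 after subtraction.

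The genes most like each member were named from 10912 candidates with a mean of at least 1 FPKM, by r over the 16 libraries. For Hspb2 the first was 1700021F05Rik (r = 0.99, and 0.93 after subtraction of group means), followed by Zfand3 and Parp6. For Hspb8 the first was Rnf10 (0.96, and 0.97 after subtraction), which is also on chromosome 5 and stood at -0.55 in clone 1 against controls. Gsdmd (r = 0.93) and Antxr1 (r = 0.93), on chromosomes 15 and 6, followed, at -1.41 and -1.85 in clone 1. For Cryab the first was Kifc3 (r = 0.92), for Hspb1 1700123M08Rik (0.96) and then Acta1, the skeletal actin (0.96), for Hspb7 Lgmn (0.99), and for Hspb6 Zfp560 (0.96).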

How the data were processed

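RNA-seq of 16 libraries (4 groups of 4) was analysed from 1 table of FPKM values deposited by the authors, with each gene's length and position. STAR, DESeq and build mm10 appear in the submitters' processing notes with no versions, and the counting program and strand setting are not given in the sources used here. Columns were matched to samples by the name in each sample's description. FPKM times length gave whole multiples of 1 step per library for 100% of values (within 0.05 of a fragment), from which fragment numbers and the depth of 22642563 to 56585952 were taken. The floor of 3 fragments covers counting error only. The labels call replicates cultures of a line, so p-values of the group contrasts measure the spread between these cultures and lines. Those of the line comparisons measure only the spread between cultures of the same line and stage. No pair of libraries agreed within sampling noise (chi-square per degree of freedom at least 19.3).

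Group means were fitted with limma 3.58.1 (R 4.3.3; trend, robust) on log2(FPKM + 1) over all 16 libraries, for genes with a mean of at least 0.5 FPKM, with Benjamini-Hochberg adjustment over 11832 genes and a threshold of 0.05. Hspb3, under the filter, was compared with two-sided exact permutation tests. Lines were compared in a fit with a mean for each line at each stage. On simulated data the procedure was tested for false and missed calls. Those libraries were independent, with no line or culture differences, so the test does not give error rates for the genotype contrasts here. Alternatives were other pseudocounts, filters, scalings and error models, a culture block, and leaving out libraries, lines or cultures. Named genes were the 7 members, Bag3, Dmpk, Flnc and Des, the 2 largest rises and falls of each list and contrast among the genes that passed, and the 3 genes most like each member. Hsf2, Hspb9, Cryaa, Odf1, Hspa1a, Proser3, Lin37 and Gm38670 are named outside this rule, after their values were seen. Members, lists and line comparisons were chosen with earlier results of these data known. Sequences came from RefSeq and GENCODE M21. Python 3.11.15, numpy 2.4.6, scipy 1.17.1, pandas 2.3.3 and matplotlib 3.10.9 were used.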

Additional observations from a re-analysis of the deposited data

Results flagged for a closer look

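The difference between the tKO clones was tested directly and passed for 2 members, Hspb8 at -0.84 and Cryab at -0.67 (clone 1 minus clone 2, log2(FPKM + 1), limma adjusted p = 0.00417 and 0.0268). It passed for 5.41% of all tested genes. For Hspb8 all 4 clone 1 libraries were below all 12 others. The share of all tested genes that separated in this way was not counted, so the split is not shown to be particular to Hspb8. Between clone 1 and the controls 16.3% of all tested genes passed. Of the 76 tested genes within 5 Mb of Hspb8, 67 were lower in clone 1 than in the controls. The Cryab call was lost in 6 of 8 fits that left out 1 tKO library.

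Of 27 groups of 4 libraries checked for a sample far from the rest, 1 stood out. Hspb3 was at 0.118 FPKM in control GM for population 2, culture 2, and at 0 in the other 3 libraries. The value is 3 fragments. With the other 3 libraries at 0 the check marks any value above 0, so it does not set that library apart. The rate of about 1 in 20 groups marked by chance does not apply to such counts.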

How the results depend on the processing

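The count of members that passed was 0 in GM and DM3 between genotypes, 5 in control and 4 in tKO differentiation and 0 for the interaction. It became 1 in GM without tKO clone 1 (Cryab at 0.75, adjusted p = 0.0189), 1 in GM without tKO clone 2 (Hspb8 at -0.93, adjusted p = 0.00265) and 3 in DM3 without tKO clone 2 (Hspb2, Hspb6 and Hspb8). Over all tested genes the calls without tKO clone 2 also rose, from 244 to 1315 in GM and from 400 to 1136 in DM3. With 1 library left out the member count ranged from 0 to 1 in DM3, and from 4 to 5 in tKO differentiation. It was 5 in control differentiation and 0 in GM and for the interaction in all such fits. Cryab in control differentiation did not pass without control population 2 (0.85, adjusted p = 0.0707) or with culture 1 alone (0.73, adjusted p = 0.112).

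Differences that had not passed also changed sign. In GM these were Hspb8 without clone 1 (0.0775), Hspb6 and Cryab without clone 2 (-0.13 and -0.0253) and Hspb1 in culture 1 (-0.0263). In DM3 they were Hspb1 without control population 1 (0.0318) or clone 2 (0.041), Hspb7 without control population 2 (-0.0272), without clone 1 (-0.0593) or in culture 2 (-0.23), and Cryab without clone 1 (0.18). In the interaction they were Hspb7 with pseudocount 0.1 (-0.34), TPM (-0.0467), quantile scaling (-0.10), voom (-0.66), without control population 2 (-0.15), without clone 1 (-0.21) and in culture 2 (-0.37), Hspb8 with TPM (0.0128) and without clone 2 (0.10), Hspb6 without clone 1 (-0.14), and Hspb1 in culture 1 (0.0127). With 1 library left out the ranges that crossed 0 were -0.23 to 0.0622 for Cryab and -0.14 to 0.0903 for Hspb3 in DM3, -0.0109 to 0.45 for Hspb8 in tKO differentiation, and -0.11 to 0.22 for Hspb7 and -0.30 to 0.16 for Hspb8 in the interaction. The cause was not tested.

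The labels do not say what a shared culture number stands for. The culture 1 minus culture 2 differences correlated across genes with r = 0.54 between the GM groups and 0.34 between the DM3 groups, and with -0.11 to 0.099 between groups of different stages. Fitted with the number of the culture as a replicate block, over both stages or within each, the member counts were again 5, 4, 0, 0 and 0. Over all genes the block within each stage gave 635 calls in GM, 748 in DM3 and 125 for the interaction, against 244, 400 and 30 without it. The counts over all tested genes, 244 (GM), 400 (DM3), 7272 (control differentiation), 7208 (tKO differentiation) and 30 (interaction), ranged over the alternatives from 17 to 1315, 47 to 1136, 4440 to 8293, 5230 to 7906 and 0 to 179. The lowest counts between genotypes came with culture 1 alone and the highest without tKO clone 2. Depth limits Hspb3 and the GM values of Hspb7.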
